A study of Mus musculus with 6 samples.

Results

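This account follows 10 genes of bile acid synthesis, conjugation, nuclear receptor control and transport in mouse liver, taken as the rows of the deposited expression table whose gene symbol was on a fixed list, 10 of 45777 genes listed. All 10 were found, and all 10 passed the filter on low counts, which kept 17274 genes. The libraries were made from whole liver of male mice on a high-fat diet (HFD), which the study's methods start at the eighth week of age, and the labels give the strain as C57BL/6, where the methods describe a floxed allele of 129S origin and backcrossing to C57BL/6J. The 3 LT mice were littermates homozygous for floxed Fpn (Slc40a1) without Cre, and the 3 Fpn-LKO mice carried the same floxed alleles together with Alb-Cre, in which the albumin promoter drives Cre recombinase in hepatocytes, so the floxed allele is common to both groups. There was 1 library per mouse, total counts lay between 43086184 and 47778683 reads, and the counts of the 10 genes lay between 586 and 68485 reads per library, so that counting error was a minor part of the scatter among mice.

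Bile acids are made from cholesterol in hepatocytes. The classical pathway starts in the endoplasmic reticulum with Cyp7a1, its rate-limiting enzyme, and Cyp8b1 then directs intermediates toward cholic acid, whereas the alternative pathway begins with the mitochondrial enzyme Cyp27a1 and continues through Cyp7b1. All of these enzymes are cytochromes P450, whose active site holds a heme iron. Slc27a5 and Baat conjugate bile acids to amino acids, Abcb11 (the bile salt export pump) secretes them into bile and Slc10a1 (NTCP) returns them from portal blood. The receptor FXR, encoded by Nr1h4, senses bile acids and induces Abcb11 and Nr0b2, whose product SHP represses Cyp7a1 and Cyp8b1 in part by acting on LRH-1 (Nr5a2).

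The promoter sequences of the FXR targets that lie at the output of this circuit, Abcb11 for export and Nr0b2 for feedback, are shown because both genes are textbook targets of FXR. They come from RefSeq (GRCm38.p6) and cover the 250 bases before the start site, 5′ to 3′ on the gene's strand. For Abcb11 (chr2:69342617-69342866, minus strand) the capitals mark an inverted repeat with a spacer of 1 base (IR-1, the element that FXR binds with RXR), and for Nr0b2 (chr4:133553126-133553375, plus strand) they mark the LRH-1 core TCAAGG.
Abcb11: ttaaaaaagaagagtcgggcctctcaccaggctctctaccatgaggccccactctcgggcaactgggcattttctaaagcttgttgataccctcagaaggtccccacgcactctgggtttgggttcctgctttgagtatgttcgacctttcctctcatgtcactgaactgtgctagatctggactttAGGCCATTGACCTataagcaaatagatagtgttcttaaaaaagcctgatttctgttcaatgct
Nr0b2: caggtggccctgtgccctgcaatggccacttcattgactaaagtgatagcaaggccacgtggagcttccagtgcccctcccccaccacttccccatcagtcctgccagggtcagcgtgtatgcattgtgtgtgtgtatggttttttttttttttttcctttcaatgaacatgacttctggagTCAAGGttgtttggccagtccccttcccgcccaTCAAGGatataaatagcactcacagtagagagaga

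Promoters of 6 of the 10 genes were matched by gene symbol (Abcb11, Cyp27a1, Cyp8b1, Nr0b2, Nr1h4 and Slc10a1), and Cyp7a1, Cyp7b1, Baat and Slc27a5 were not. The IR-1 (AGGTCA, any 1 base, then TGACCT, searched on both strands with at most 1 mismatch) was found from 63 to 51 bases before the start of Abcb11 and in none of the other promoters of these 6 genes, against 0.0791% of 32851 RefSeq promoter windows of the same length. The single repeat AGGTCA was found in Abcb11, where it overlaps the IR-1, and in Nr1h4 and Slc10a1, against 14.0% of all windows. The 6 genes had 7 windows, and the Nr1h4 match lay in a window from base 89506609 of chromosome 10, inside the span of that gene. TCAAGG was found at 68 and 35 bases before the start of Nr0b2 and in no other of these promoters, against 12.5% of all windows. These matches describe letters only, and no binding was measured. Sequence outside these windows was not searched. A missing match, such as that of the IR-1 in Nr0b2, therefore does not show that the gene lacks the element.

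The label was examined before any direction was drawn. Slc40a1, which encodes the iron exporter ferroportin, on chromosome 1 from 45908070 to 45926532, measured 154, 180 and 126 CPM in the LT libraries and 143, 143 and 176 CPM in those that bear the Fpn-LKO label, where CPM is the count scaled to library size with TMM factors. Means were 153 ± 27.0 and 154 ± 18.7 CPM (SD, n = 3 each), with a log2 fold change of 0.01 (standard error 0.16). The targeted gene thus gave no lower count under the Fpn-LKO label, and Fpn-LKO here always means the libraries so labelled. The study also genotyped its mice by PCR. By other assays it reports loss of ferroportin from hepatocytes of Fpn-LKO mice, and more liver iron and ferritin protein in those on HFD. These assays were not analysed here. A count per gene also holds reads from exons that Cre does not remove and from cells without Alb-Cre. Of the marker lists, hepatocyte genes summed to between 37389 and 55646 TPM (level per transcript length, with the same total in every library) in LT and between 45110 and 51152 TPM in Fpn-LKO. The summed levels of the cholangiocyte, Kupffer cell, endothelial, stellate, red blood cell, pericentral, periportal and circadian clock lists all overlapped between the groups, and 4 of 5 exocrine pancreas genes (Prss2, Cpa1, Pnlip and Ctrb1) had no read in any library, while the other, Cela2a, lay between 0.783 and 1.84 TPM in LT and between 0 and 0.532 TPM in Fpn-LKO, without overlap. Single markers differed more than these sums. Of 6 periportal genes, 3 had an unadjusted p-value under 0.05 against 4.80% of all genes, all 3 with higher means in Fpn-LKO, namely Sds (log2 fold change 1.27), Gls2 (1.15) and Ctsc (0.85), each with an adjusted p of 0.982 in edgeR's quasi-likelihood fit. The groups of Gls2 and Ctsc did not overlap, against 10.6% of all genes, and the periportal sum was mostly Pck1 (0.12). Of the 6 pericentral genes, 0 had an unadjusted p-value under 0.05. Log2 fold changes were positive for all 6 periportal genes and for 5 of the 6 pericentral genes. The largest of the pericentral list was that of Oat (1.00, standard error 0.44), whose groups overlapped. Elsewhere among the lists, Lyve1 (endothelial, higher mean in Fpn-LKO) and Alas2 (red blood cell, log2 fold change 0.47) had an unadjusted p-value under 0.05, and their groups overlapped. Cela2a (log2 fold change -2.30) and the clock genes Per3 and Tef were also under 0.05, all lower in Fpn-LKO. So was the ileal marker Slc10a2, higher in Fpn-LKO, and it and the clock genes are described below. The groups of Col1a1 (stellate, log2 fold change 1.06, from 12 to 90 reads) did not overlap either, with more in Fpn-LKO. Neither Col1a1 nor Lyve1 stood for its list. Of the 5 stellate genes, 3 had a positive and 2 a negative log2 fold change, with a median of 0.02. Of the 5 endothelial genes, 2 had a positive and 3 a negative log2 fold change, with a median of -0.24. The part of zonation in the values of the bile acid genes was not tested. In whole liver, fewer cells of a type and less RNA per cell cannot be told apart.

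None of the 10 genes passed the test between the genotypes. In edgeR's quasi-likelihood fit, 4 of 17274 genes (0.0232%) were under 0.05 after Benjamini-Hochberg adjustment, all 4 higher in Fpn-LKO (with DESeq2 49 higher and 23 lower, with exactTest 44 and 19), and the adjusted values of the 10 bile acid genes lay between 0.982 and 0.995. At an unadjusted p-value under 0.05 there was 1 of 10, Cyp7a1, where the share over all genes was 4.80% (2.62% higher and 2.19% lower in Fpn-LKO). Groups did not overlap in 0 of 10 genes, against 10.6% of all genes (5.25% higher and 5.34% lower). An absolute log2 fold change of at least 1 was found in 1 of 10, again Cyp7a1, and in 5.46% of all genes. The log2 fold changes (Fpn-LKO over LT) were positive for 4 genes and negative for 6, with a median of -0.08 beside -0.004 over all genes tested. With DESeq2's Wald test and with edgeR's exactTest, which called 0.417% and 0.365% of all genes, the count of the 10 genes past the adjusted threshold was also 0.

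**Figure D1:**
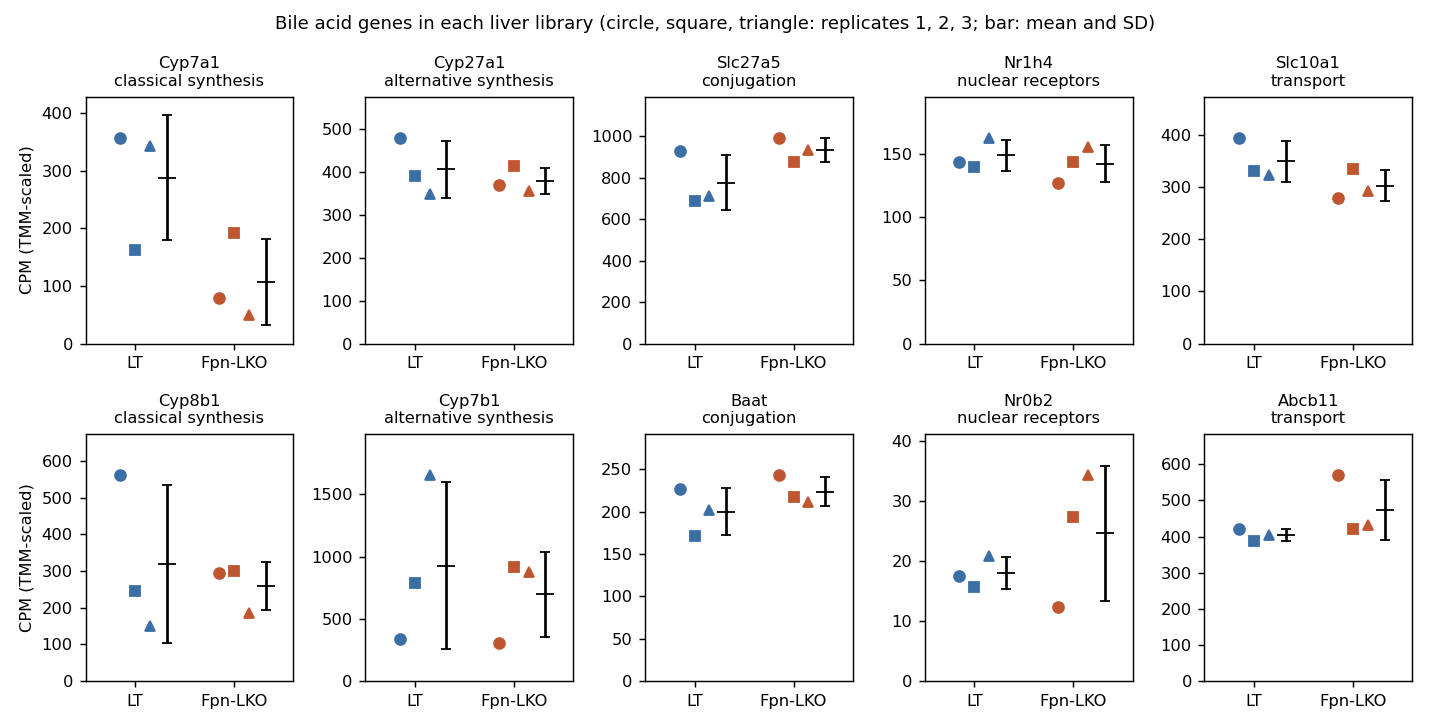
CPM of the 10 bile acid genes (y axis, TMM-scaled, from 0) in each LT and Fpn-LKO library, with 1 symbol per mouse and the mean and SD (n = 3) beside them. Cyp7a1 lies between 163 and 357 CPM in LT, and between 50.4 and 192 CPM in Fpn-LKO, and the groups overlap in every panel.

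Cyp7a1, on chromosome 4 of GRCm38 from 6265612 to 6275632, showed the largest difference of the 10 genes. It measured 357, 163 and 343 CPM in LT libraries 1 to 3 and 79.3, 192 and 50.4 CPM in libraries 1 to 3 labelled Fpn-LKO. Fpn-LKO replicates 1 and 3 lay below every LT library, whereas Fpn-LKO replicate 2 lay above LT replicate 2. Means of Cyp7a1 were 288 ± 108 and 107 ± 74.8 CPM (SD, n = 3 each), so that the fitted level in Fpn-LKO was 0.373 of that in LT, with a 95% interval from 0.163 to 0.850. The log2 fold change of -1.42 (standard error 0.51, unadjusted p = 0.0250) was not called (adjusted p = 0.982 in edgeR's quasi-likelihood fit), and the exact two-sided permutation test gave p = 0.2, where 0.1 is the smallest that 3 mice against 3 allow. Without Fpn-LKO replicate 2 the log2 fold change was -2.15, and without Fpn-LKO replicate 3 it was -1.08.

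Cyp8b1, the enzyme of the cholic acid branch, on chromosome 9 from 121914356 to 121916305, measured 561, 245 and 151 CPM in LT libraries 1 to 3. In Fpn-LKO replicates 1 to 3 it had 295, 299 and 184 CPM. The LT libraries thus spanned 3.72-fold and held both the highest and the lowest value, and all Fpn-LKO libraries lay between them. The log2 fold change was -0.30 (standard error 0.45, 95% interval from -1.35 to 0.75, adjusted p = 0.995 in edgeR's quasi-likelihood fit). It turned to 0.39 without LT replicate 1, so the sign of the Cyp8b1 difference rested on that library.

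Within a library, the ratio of Cyp8b1 to Cyp7a1 in TPM compares the branch enzyme with the entry enzyme of the same pathway. It was 3.36, 3.22 and 0.940 for LT libraries 1 to 3 and 7.96, 3.33 and 7.83 for libraries 1 to 3 labelled Fpn-LKO. Fpn-LKO replicates 1 and 3 had more than any LT library, and Fpn-LKO replicate 2 was close to LT replicates 1 and 2. The ratio was chosen after the values of both genes were seen and has no test.

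Among the genes of the alternative pathway, Cyp27a1 varied little and Cyp7b1 more than any other of the 10 genes within LT. Cyp27a1, the mitochondrial side-chain hydroxylase, on chromosome 1 from 74713148 to 74737897, measured 479, 390 and 347 CPM in the LT libraries and 368, 413 and 355 CPM in those labelled Fpn-LKO. Its log2 fold change was -0.10 (standard error 0.16, 95% interval from -0.46 to 0.27, adjusted p = 0.995 in edgeR's quasi-likelihood fit). Its sign differed with limma on TPM and without LT replicate 1, and the groups lay within the same range.

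Cyp7b1, the oxysterol hydroxylase of the alternative pathway, on chromosome 3 from 18071944 to 18243890, measured 337, 786 and 1655 CPM in LT libraries 1 to 3. In Fpn-LKO replicates 1 to 3 it had 301, 915 and 873 CPM. The LT libraries spanned 4.91-fold and the Fpn-LKO libraries 3.04-fold, and in both groups replicate 1 was the lowest. The log2 fold change of -0.41 had a standard error of 0.60 and a 95% interval from -1.81 to 0.99 (adjusted p = 0.995 in edgeR's quasi-likelihood fit), and it was 0.31 without LT replicate 3. For Cyp7b1 a change to 0.284 of the LT level or to 1.99 times that level would lie within the interval.

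Cyp7b1 and Cyp8b1 stood in opposite order among the LT mice, where the library with the most Cyp8b1 held the least Cyp7b1. The ratio of Cyp7b1 to Cyp8b1 in TPM was 0.539, 2.87 and 9.88 for LT libraries 1 to 3. In Fpn-LKO it was 0.920, 2.74 and 4.23, so the Fpn-LKO mice lay inside the LT range. This spread between mice of 1 genotype was wider than the difference between the genotype means for either gene.

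**Figure D2:**
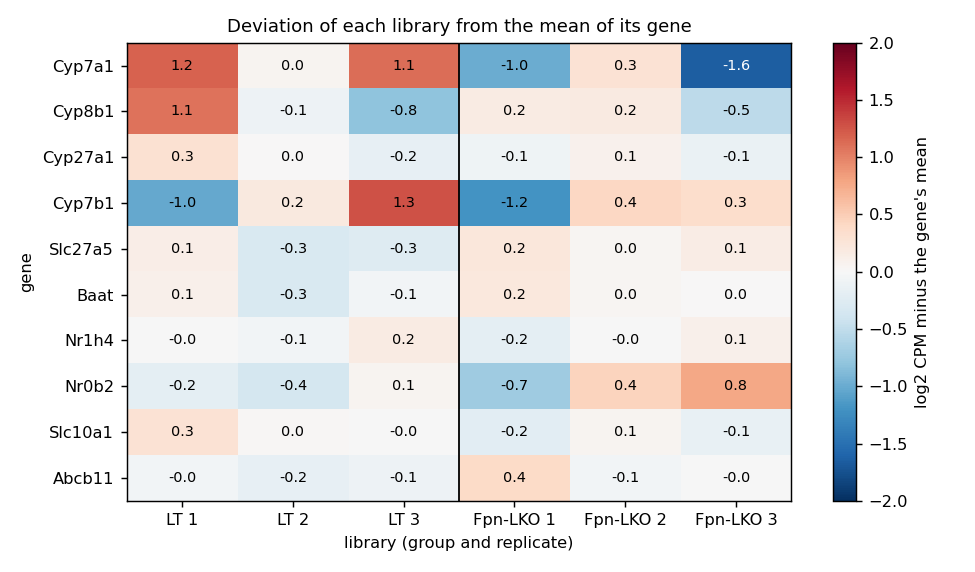
Heat map of log2 CPM minus the mean of each gene over the 6 libraries (color and printed value), with genes in rows, libraries in columns and a line between LT and Fpn-LKO. The widest deviations are in Cyp7a1, Cyp7b1 and Cyp8b1, whereas Nr1h4, Baat, Cyp27a1, Slc10a1, Abcb11 and Slc27a5 stay near their means.

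The conjugating enzymes had higher means in Fpn-LKO, within the spread between mice. Slc27a5, the bile acid CoA ligase, on chromosome 7 from 12988346 to 12998192, measured 928, 687 and 711 CPM in the LT libraries and 992, 874 and 934 CPM in those labelled Fpn-LKO. LT replicates 2 and 3 lay below every Fpn-LKO library, and LT replicate 1 lay within the Fpn-LKO range. Fitted between the genotypes, the log2 fold change was 0.27 (standard error 0.17, 95% interval from -0.12 to 0.65, adjusted p = 0.982 in edgeR's quasi-likelihood fit).

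Baat, which joins the activated bile acid to taurine or glycine, on chromosome 4 from 49489416 to 49507915, measured 227, 171 and 202 CPM in the LT libraries and 243, 217 and 211 CPM in those labelled Fpn-LKO. Its log2 fold change was 0.16 (standard error 0.14, 95% interval from -0.16 to 0.49, adjusted p = 0.985 in edgeR's quasi-likelihood fit). As for Slc27a5, LT replicate 1 was the LT library that reached the Fpn-LKO range.

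Of the nuclear receptors, Nr1h4 (FXR), on chromosome 10 from 89454234 to 89533645, was the most even of the 10 genes, with 144, 140 and 163 CPM in the LT libraries and 127, 144 and 156 CPM in those labelled Fpn-LKO. Its log2 fold change of -0.07 had the smallest standard error of the 10, 0.12, and the 95% interval ran from -0.36 to 0.22 (adjusted p = 0.995 in edgeR's quasi-likelihood fit), which leaves out a change of Nr1h4 to under 0.780 or over 1.17 of the LT level. Its sign differed with limma on TPM, without LT replicate 3 and without Fpn-LKO replicate 1.

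Nr0b2 (SHP), the feedback repressor whose promoter is printed above, on chromosome 4 from 133553376 to 133556686, measured 17.5, 15.7 and 20.9 CPM in LT libraries 1 to 3 and 12.3, 27.3 and 34.3 CPM in libraries 1 to 3 labelled Fpn-LKO. Fpn-LKO replicates 2 and 3 were above every LT library, whereas Fpn-LKO replicate 1 was below all of them. The spread was 1.33-fold in LT and 2.79-fold in Fpn-LKO. The log2 fold change was 0.45 (standard error 0.34, 95% interval from -0.34 to 1.24, adjusted p = 0.982 in edgeR's quasi-likelihood fit), and it was 0.77 without Fpn-LKO replicate 1 and 0.14 without Fpn-LKO replicate 3.

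Nr0b2 and Cyp7a1 did not run in a fixed opposite order over the Fpn-LKO mice. Fpn-LKO replicate 3 had the most Nr0b2 and the least Cyp7a1 of all 6 libraries, but Fpn-LKO replicate 1 had the least Nr0b2 together with the second lowest Cyp7a1. The Nr0b2 level was 0.183, 0.174 and 0.201 of the Nr1h4 level in TPM in LT, and 0.147, 0.292 and 0.333 of it in Fpn-LKO.

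For transport, the uptake carrier had a lower mean and the export pump a higher mean in Fpn-LKO, and neither passed. Slc10a1, the sodium-dependent carrier of the sinusoidal membrane, on chromosome 12 from 80953185 to 80968705, measured 395, 331 and 323 CPM in the LT libraries and 279, 336 and 293 CPM in those labelled Fpn-LKO. Its log2 fold change was -0.21 (standard error 0.14, 95% interval from -0.53 to 0.12, adjusted p = 0.982 in edgeR's quasi-likelihood fit), and Fpn-LKO replicate 2 lay above LT replicates 2 and 3.

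Abcb11, the canalicular pump with the IR-1 printed above, on chromosome 2 from 69238282 to 69342616, measured 422, 388 and 405 CPM in the LT libraries and 570, 420 and 433 CPM in those labelled Fpn-LKO. Fpn-LKO replicate 1 was the highest, and Fpn-LKO replicate 2, at 420 CPM, was just under LT replicate 1. Fitted between the genotypes, the log2 fold change was 0.23 (standard error 0.15, 95% interval from -0.13 to 0.59, adjusted p = 0.982 in edgeR's quasi-likelihood fit), and without Fpn-LKO replicate 1 it was 0.08. The FXR targets Abcb11 and Nr0b2 thus stood apart in Fpn-LKO replicate 1, which had the most Abcb11 and the least Nr0b2.

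**Figure D3:**
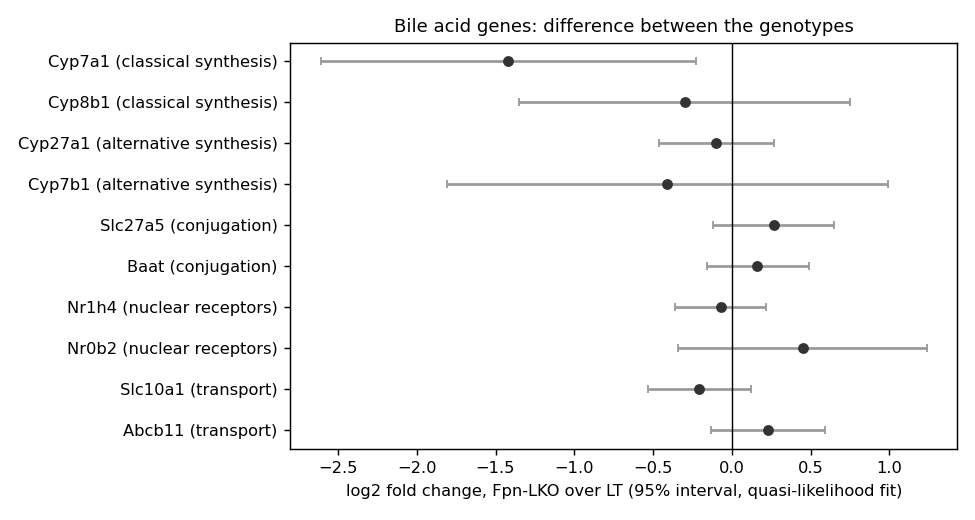
Log2 fold change (x axis, Fpn-LKO over LT) of each of the 10 genes with its 95% interval from the quasi-likelihood fit, and the role of each gene beside its name. The interval of Cyp7a1, from -2.61 to -0.23, is the only one that leaves out 0, before adjustment over all genes.

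Levels of different genes were compared in TPM. Averaged over the 6 libraries, Slc27a5 (483 TPM) and Cyp7b1 (480 TPM) were highest, and each was above the other in 3 libraries. They were followed by Cyp27a1 (264 TPM), Slc10a1 (247 TPM), Cyp8b1 (199 TPM), Baat (141 TPM), Abcb11 (118 TPM) and Nr1h4 (97.0 TPM). Cyp7a1 (62.0 TPM) and Nr0b2 (22.0 TPM) were lowest. Of neighbours in this order, Baat was above Abcb11 and Abcb11 above Nr1h4 in all 6 libraries, whereas every other pair of neighbours changed places in at least 1 library, so that Cyp8b1, for example, lay above Baat in 4 of 6. Cyp7a1 ranged from 16.0 to 120 TPM and was above Nr0b2 in 5 of 6 libraries.

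**Figure D4:**
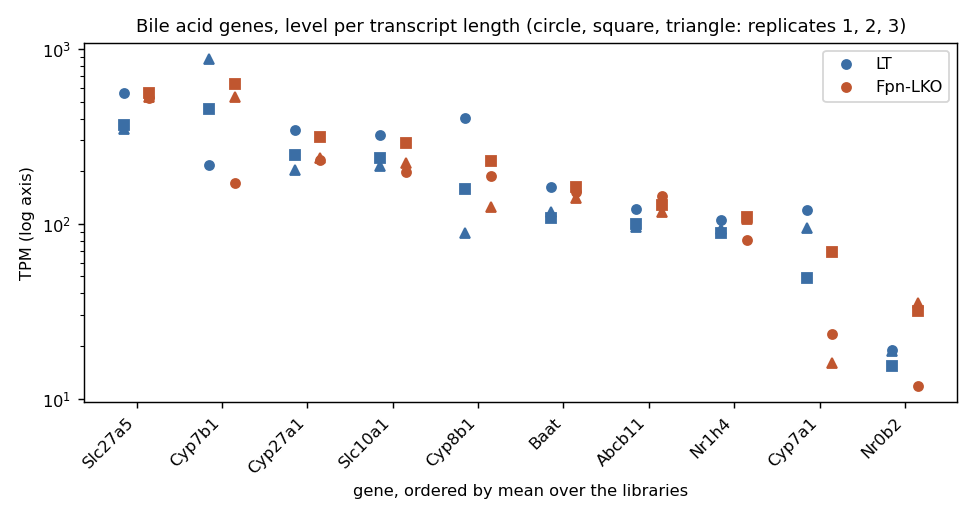
TPM (y axis, log scale) of the 10 genes in every LT and Fpn-LKO library, ordered by the mean over the 6 libraries, with symbol shape for the replicate. Slc27a5 and Cyp7b1 lead at 483 and 480 TPM on average, and Nr0b2 is lowest with 11.8 to 35.3 TPM.

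Of 38 other genes of bile acid synthesis, side chain shortening, transport, regulation and detoxification, 33 passed the filter on low counts, and 0 were called in edgeR's quasi-likelihood fit (adjusted p from 0.918 to 0.995). The log2 fold changes were positive for 16 and negative for 17, with a median of -0.02. Before adjustment 3 of 33 had p under 0.05, or 9.09%, beside 4.80% of all genes, and the groups of the same 3 genes did not overlap, beside 10.6% of all genes. Ch25h, Slc51a, Slc51b, Gpbar1 and Cyp2b10 were left out by the filter, and none of them exceeded 0.769 TPM in any library.

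These 3 genes were Cyp46a1, Slco1a1 and Hnf4a. Slco1a1, an organic anion carrier of the sinusoidal membrane that takes up bile acids, measured 976, 1072 and 871 CPM in the LT libraries and 494, 780 and 727 CPM in those labelled Fpn-LKO (a log2 fold change of -0.54, standard error 0.20, unadjusted p = 0.0291, adjusted p = 0.982 in edgeR's quasi-likelihood fit). All 3 Fpn-LKO libraries lay below every LT library. Hnf4a, a hepatocyte nuclear receptor that activates Cyp7a1 and Cyp8b1, measured 239, 250 and 265 CPM in the LT libraries and 310, 344 and 286 CPM in those labelled Fpn-LKO (a log2 fold change of 0.32, standard error 0.12, unadjusted p = 0.0328, adjusted p = 0.982 by the same edgeR test). Its groups were apart in the direction of more Hnf4a in Fpn-LKO. A relation of Hnf4a to the levels of Cyp7a1 and Cyp8b1 was not tested. Cyp46a1, the cholesterol hydroxylase best known from brain, had means of 0.466 ± 0.0968 CPM for LT and 1.62 ± 0.944 CPM for Fpn-LKO (SD, n = 3 each), with a log2 fold change of 1.79 (standard error 0.50, unadjusted p = 0.00808, adjusted p = 0.918 by the same edgeR test) on as few as 15 reads in a library.

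By role, 0 of 6 side chain shortening genes, 1 of 9 tested transporters (Slco1a1), 1 of 9 receptors and regulators (Hnf4a), 1 of 6 synthesis genes (Cyp46a1) and 0 of 3 detoxification genes had an unadjusted p-value under 0.05, beside 4.80% of all genes. The side chain genes were the most even, with log2 fold changes from -0.15 (Amacr, the racemase of the side chain) to 0.13 (Acot8, a peroxisomal thioesterase). The other genes named by the rule did not pass either. Abcc4, a basolateral efflux pump, had a log2 fold change of 0.51 (standard error 0.29), Rxra, the partner of FXR, had -0.18 (standard error 0.16), Cyp3a11, which hydroxylates bile acids, had -0.23 (standard error 0.48) and Sult2a8, a bile acid sulfotransferase, had -0.16 (standard error 0.17). Cyp2c70, which makes muricholic acids in mice, measured 128, 211 and 1135 CPM in the LT libraries and 246, 445 and 369 CPM in those labelled Fpn-LKO (a log2 fold change of -0.47, standard error 0.74). Its LT libraries spanned 8.86-fold and stood in the same order as those of Cyp7b1.

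**Figure D5:**
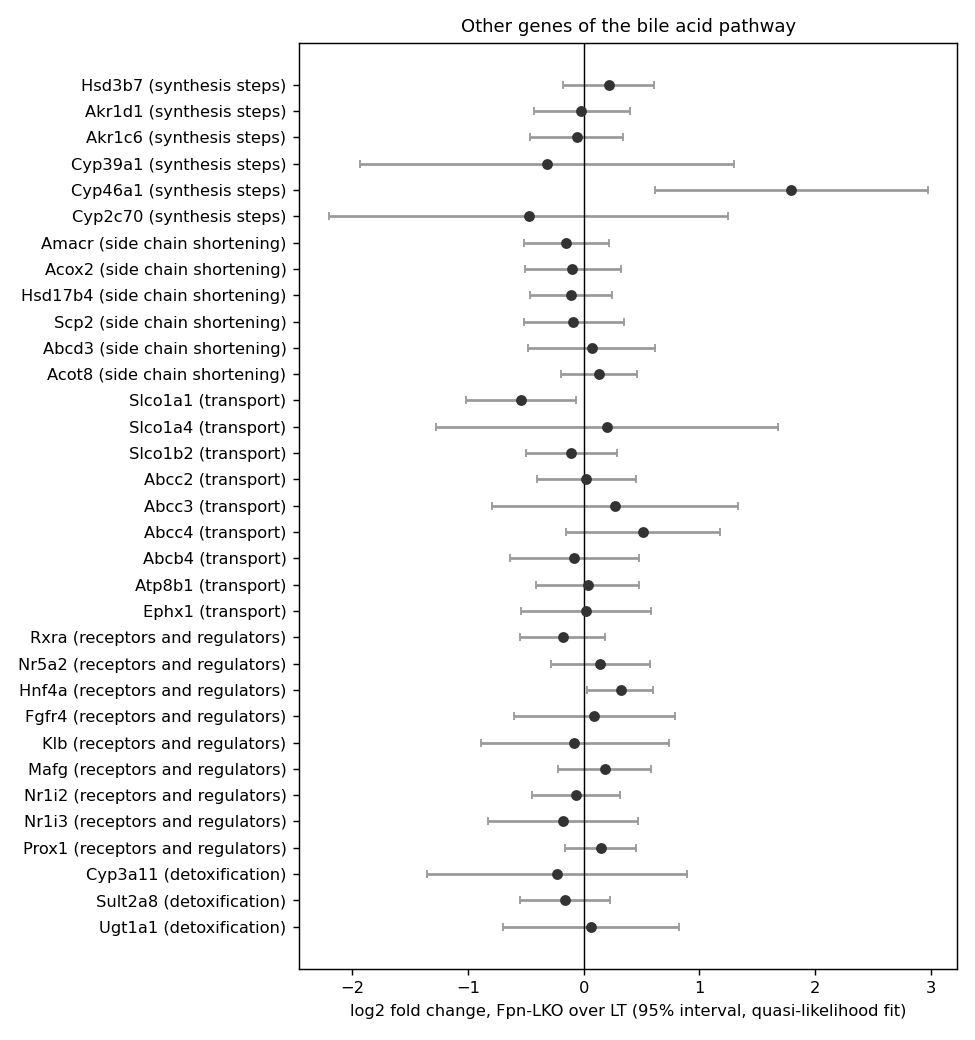
Log2 fold change (x axis, Fpn-LKO over LT) with its 95% interval for the 33 other bile acid genes tested, labelled by role. The intervals of Cyp46a1, Slco1a1 and Hnf4a leave out 0 before adjustment, and those of Cyp2c70, Cyp39a1 and Slco1a4 are the widest.

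The list of ileal markers held a further bile acid carrier. Fgf15 and Fabp6, which define ileal enterocytes, had no read in any library, so the summed level of that list was that of Slc10a2, the apical sodium-dependent bile acid transporter known from ileum and bile duct cells. Slc10a2, on chromosome 8 from 5083219 to 5105287, measured 24.9, 23.6 and 27.7 CPM in LT libraries 1 to 3 and 49.2, 42.9 and 137 CPM in libraries 1 to 3 labelled Fpn-LKO. All Fpn-LKO libraries were above every LT library, and replicate 3 was far above the other two. The log2 fold change of 1.59 (standard error 0.42, unadjusted p = 0.00631) was not called in edgeR's quasi-likelihood fit (adjusted p = 0.851), nor with exactTest (adjusted p = 0.0685), whereas DESeq2's Wald test called it (adjusted p = 0.00960). Without Fpn-LKO replicate 3 the log2 fold change of Slc10a2 was 0.86. The summed cholangiocyte list lay between 10.7 and 67.4 TPM in LT and between 18.1 and 30.3 TPM in Fpn-LKO, nearly all of it from Spp1, while Krt19, Krt7, Epcam, Sox9, Cftr and Sctr were each under 1 TPM in every library.

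Because Cyp7a1 follows a daily rhythm in mice, clock genes were set beside it. The summed level of 11 clock genes lay between 131 and 160 TPM in LT and between 125 and 162 TPM in Fpn-LKO. Of the 10 that were tested, 2 had an unadjusted p-value under 0.05 (4.80% of all genes, 2.19% in the lower direction), Per3 and Tef, both lower in Fpn-LKO (log2 fold changes -0.53 and -0.33, adjusted p = 0.570 and 0.982 in edgeR's quasi-likelihood fit). The log2 fold changes of the 10 were positive for 5 and negative for 5, with a median of -0.02. Although the summed levels overlapped, the groups of Per3 and of Tef did not, which was 2 of 10 against 10.6% of all genes. Dbp, a strongly rhythmic output gene, measured 31.8, 33.4 and 34.8 CPM in the LT libraries and 39.2, 33.1 and 21.3 CPM in those labelled Fpn-LKO. The part of sampling time in the Cyp7a1 values was not tested.

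The genes with the profile most like that of Cyp7a1 and Cyp8b1 were found by the root mean square difference of log2(CPM + 1), each gene centred on its own mean over the 6 libraries, among 12576 other genes with a mean of at least 1 CPM. For Cyp7a1 they were Igsf23 (0.54), Gm10819 (0.58) and Eif3s6-ps2 (0.59), where the profile of Cyp7a1 itself deviated by 1.03 and the median over all genes was 1.04. Igsf23 (0.208 to 3.43 CPM) and Eif3s6-ps2 (0.0216 to 4.28 CPM) were near the floor, where the added 1 shapes the profile. Gm10819 lay between 10.9 and 35.6 CPM. For Cyp8b1 they were Tox (0.13), Gm46408 (0.19) and C730002L08Rik (0.19), against 0.60 for Cyp8b1 itself and a median of 0.63. Tox, a factor with an HMG box, measured 7.01, 3.05 and 1.69 CPM in the LT libraries and 4.38, 3.47 and 1.98 CPM in those labelled Fpn-LKO. At these low levels the added 1 shapes the profile of Tox too. By this measure Cyp8b1 had closer neighbours than Cyp7a1, and no gene came nearer to Cyp7a1 than 0.54.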

How the data were processed

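Liver RNA of 3 LT and 3 Fpn-LKO mice was compared, with groups and replicate numbers from the sample titles. The labels give a stranded mRNA kit, whereas the methods give rRNA removal. Per the labels' processing notes, HISAT2 2.1.0, Bowtie2 2.3.4.1 and StringTie 2.1.3b were used with mm10. The authors deposited raw read counts per gene, FPKM (per transcript length and library) and TPM (scaled to the same total in every library). The filter of the study was kept, which drops any gene at 0 reads in more than 1 of the 6 libraries. Counts were tested with edgeR 4.0.16 in R 4.3.3 (TMM, quasi-likelihood test, Benjamini-Hochberg adjustment over 17274 genes, threshold 0.05) in place of the study's exactTest, and standard errors were derived from the F statistic. The alternatives used DESeq2 1.42.0, limma 3.58.1 and other settings. Scripts were tested on simulated data. The 10 genes and all lists were chosen with earlier results of these data known. Named genes were Slc40a1, the 10 genes, listed pathway genes with an unadjusted p-value under 0.05 or among the 2 largest log2 fold changes of their role at a mean CPM of at least 1, the 3 nearest profiles of Cyp7a1 and Cyp8b1, and listed markers. There was 1 library per mouse. The p-values of the main fit set the difference between genotypes against the spread between mice, estimated in part from all genes tested.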

Additional observations from a re-analysis of the deposited data

How the results depend on the processing

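Over 14 alternatives, 0 of the 10 genes and 0 of the tested genes among the 38 others listed (a list without Slc10a2, which DESeq2 called at an adjusted p of 0.00960) were past the adjusted threshold of 0.05 with the tool of that alternative, and Cyp7a1 stayed negative in all 14, from -2.15 to -1.08 in log2 fold change (adjusted p from 0.483 to 1.00). Slc27a5, Baat, Nr0b2, Slc10a1 and Abcb11 also kept their sign in all 14. The sign turned for Cyp8b1 (from -0.63 to 0.39 with 1 library left out, 0.39 without LT replicate 1), Cyp7b1 (from -0.81 to 0.31, the latter without LT replicate 3), Cyp27a1 (from -0.20 to 0.04, 0.00549 and 0.00558 with limma on log2(TPM + 1) and log2(TPM + 0.1), 0.04 without LT replicate 1) and Nr1h4 (from -0.14 to 0.01, 0.04 with limma at either pseudocount, 0.0038 without LT replicate 3, 0.00933 without Fpn-LKO replicate 1). Slc40a1 was -0.11 without LT replicate 3 and -0.10 without Fpn-LKO replicate 3. On TPM the median over all genes moved by 0.087 or 0.101 on the log2 scale, and the cause of the turns was not tested. The count of all genes past the adjusted threshold, 4, all higher in Fpn-LKO, was 72 with DESeq2 (23 lower), 63 with exactTest (19 lower), 7 with limma on log2(TPM + 0.1) and 0 to 6 when 1 library was left out (2 of 6 lower without Fpn-LKO replicate 3, 1 of 4 without Fpn-LKO replicate 1). With the replicate number as a block it was 0, with 850 genes at an unadjusted p-value under 0.05, and the log2 fold change of Cyp7a1 was -1.62. Deviations of same-numbered libraries correlated at 0.26, 0.04 and 0.14, and those of differently numbered libraries from -0.21 to 0.09. Each LT library correlated best with the Fpn-LKO library of its number, whereas the Fpn-LKO replicate 2 library correlated best with LT replicate 3. The number was not taken as a pairing in the main fit, and whether it marks one was not tested. With the block the standard error of Cyp7b1 was 0.24 (0.60 without) and that of Cyp8b1 0.27 (0.45 without). That of Cyp7a1 was 0.62 (0.51 without). The shares of the 10 genes in their summed level were the same with FPKM as with TPM. Within a library these units differ by a constant factor, so that comparison could not have come out otherwise and tests nothing.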

Other observations

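The profile of Cyp7b1 over the 6 libraries was examined after its values had been seen. Its nearest genes by the same root mean square difference of centred log2(CPM + 1) were Mup-ps15 (0.23), Fabp5 (0.25) and C4a (0.25), where Cyp7b1 itself deviated by 0.86 and the median over all genes was 0.87. C4a, which encodes the sex-limited form of complement C4 in mice, measured 91.6, 195 and 405 CPM in the LT libraries and 124, 273 and 250 CPM in those labelled Fpn-LKO. Mup-ps15, a pseudogene of the major urinary proteins, measured 1.51, 5.59 and 15.0 CPM in the LT libraries and 1.49, 8.57 and 9.37 CPM in those labelled Fpn-LKO. Fabp5, a fatty acid carrier, measured 7.49, 16.5 and 51.0 CPM in the LT libraries and 5.66, 16.4 and 24.7 CPM in those labelled Fpn-LKO. In all 3 genes LT replicate 3 was highest, and replicate 1 was the lowest of each group, as in Cyp7b1. Mup-ps15 and C4a have close copies elsewhere in the genome, so reads may have been divided among copies and these levels are uncertain. In replicate 1 of each group Mup-ps15 was near the floor, where the added 1 shapes the profile.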
